A study of Mus musculus with 18 samples.

Results

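The collagen genes of the mouse were followed through the liver and the gut of transplanted mice. They were taken as every row of the count table whose gene identifier maps to a protein-coding symbol made of Col, a number, a and a number, which gave 44 of 53379 genes. By type they are 11 fibrillar collagens, 8 collagens of basement membranes and 25 others. Levels are given as CPM, the counts of a gene scaled to a library of 1000000 counts. Differences are given as log2 values of BMT over BM from edgeR's quasi-likelihood test, with adjusted p-values over all genes tested in a tissue, and a gene is called at an adjusted p under 0.05.

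RNA sequencing was done on 18 libraries from female BALB/cJ mice aged 6 to 8 weeks, 3 libraries for each of 2 treatments in each of 3 tissues. All recipients were lethally irradiated and received 10000000 bone marrow cells, either alone (BM, the control) or together with 1000000 T cells (BMT), and every tissue was taken on day 7. The tissues were bulk liver and isolated epithelium of the small and the large intestine, and isolating epithelium separates it from most of the connective tissue beneath. No source used here names the strain of the donors, and no untreated mice are among these libraries.

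Sample titles and library codes conflict for the gut. The set titled small intestine is coded LI, and it held Hoxb13, a transcription factor of the hindgut, at 41.9 to 170 CPM. The set titled large intestine is coded SI, in which Hoxb13 had no count and Fabp6, the ileal bile acid binding protein, stood at 1184 to 9995 CPM. The gut sets are therefore called by their codes, LI and SI. The liver libraries held albumin (Alb), the main secreted protein of hepatocytes, at 84709 to 145271 CPM. Library depth was 18845483 to 25610937 counts, so 3 counts, taken here as the floor, are 0.117 to 0.159 CPM. One library stood apart among the gut sets: code SI BMT library 3 held Alb at 94.8 CPM, against 0.318 and 1.16 CPM in the other code SI BMT libraries. Library names give each replicate its own number, but no label states that replicates are separate animals. The p-values therefore cover the spread between these libraries, which may be technical.

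Collagens are triple-helical proteins of the extracellular matrix. Fibrillar collagens such as types I, III and V form the cables of connective tissue, whereas type IV collagen forms the sheet-like network of basement membranes beneath epithelium and around vessels. In the liver, stellate cells are the main source of fibrillar collagen after injury, and in the gut the collagens of the lamina propria are made by fibroblasts and related stromal cells. RNA of a bulk sample does not separate cells: fewer cells of a type and less RNA per cell cannot be told apart.

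The stretch in front of the start site is shown for 4 collagens that behave differently in these data: Col5a3 and Col6a2, which were called higher in BMT liver, Col11a2, which was called lower in BMT code SI, and Col3a1, an abundant fibrillar collagen called in no tissue. Each line holds the 250 bases before a RefSeq start site in GRCm38.p6, 5′ to 3′ along the gene's strand, and these windows hold no annotated exon. Capitals mark 3 short motifs on either strand, which do not overlap here: CCAAT or ATTGG (the CCAAT box), GGGCGG or CCGCCC (the GC box) and TATAAA or TTTATA (the TATA box). A match is by letters alone, at any position in the window, and none was tested as a working site. The windows are chr9:20815068-20815317 (minus strand) for Col5a3, chr10:76623631-76623880 (minus strand) for Col6a2, chr17:34038888-34039137 (plus strand) for Col11a2 and chr1:45311288-45311537 (plus strand) for Col3a1.
Col5a3: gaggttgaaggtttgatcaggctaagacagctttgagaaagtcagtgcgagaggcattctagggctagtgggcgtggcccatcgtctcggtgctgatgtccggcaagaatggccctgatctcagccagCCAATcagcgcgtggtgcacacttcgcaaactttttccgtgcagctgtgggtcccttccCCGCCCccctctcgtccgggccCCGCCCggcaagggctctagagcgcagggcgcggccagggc
Col6a2: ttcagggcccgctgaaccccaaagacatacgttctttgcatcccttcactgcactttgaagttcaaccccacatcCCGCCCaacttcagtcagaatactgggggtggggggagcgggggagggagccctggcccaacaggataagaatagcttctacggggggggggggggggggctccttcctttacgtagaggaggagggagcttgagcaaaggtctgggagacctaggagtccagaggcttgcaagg
Col11a2: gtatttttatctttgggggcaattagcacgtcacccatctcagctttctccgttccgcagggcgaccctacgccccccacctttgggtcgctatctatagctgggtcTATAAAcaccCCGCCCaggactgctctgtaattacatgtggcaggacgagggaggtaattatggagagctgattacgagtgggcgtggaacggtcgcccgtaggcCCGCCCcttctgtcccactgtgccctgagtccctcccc
Col3a1: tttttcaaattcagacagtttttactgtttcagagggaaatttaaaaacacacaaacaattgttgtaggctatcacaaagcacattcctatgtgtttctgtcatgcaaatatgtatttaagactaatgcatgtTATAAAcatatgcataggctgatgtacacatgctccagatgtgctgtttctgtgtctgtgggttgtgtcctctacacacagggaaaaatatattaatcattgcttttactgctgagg
The Col5a3 window holds 1 CCAAT and 2 GGGCGG matches, and the Col6a2 window holds 1 GGGCGG match. A second Col6a2 start site has a window at chr10:76623405-76623654 with 3 GGGCGG matches, which is not printed because it overlaps an annotated exon. The Col11a2 window holds 1 TATAAA and 2 GGGCGG matches, and the Col3a1 window holds 1 TATAAA match. The RefSeq start site used for Col11a2 lies upstream of the gene span given below. Over all 32851 windows of this length, 33.8% hold CCAAT, 32.7% GGGCGG and 12.4% TATAAA on either strand. RefSeq entries were found for 35 of the 44 collagen genes, with 38 windows. Of these windows 13 hold CCAAT, 22 GGGCGG and 5 TATAAA. Counted by gene, 13 hold CCAAT, 21 GGGCGG and 5 TATAAA in at least 1 window. Without an entry are Col1a1, Col2a1, Col4a3, Col5a2, Col9a3, Col12a1, Col14a1, Col22a1 and Col26a1.

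In the liver, collagen RNA was dominated by 1 gene. Col18a1, whose C-terminal fragment is endostatin and which hepatocytes express, held 86.1% of the liver's collagen counts. Per kilobase of exon its mean was 144 CPM in BM and 179 CPM in BMT livers. Next on this scale in BM livers were Col14a1 at 4.33, Col4a1 at 2.73 and Col4a2 at 2.52, and in BMT livers Col4a1 at 6.51, Col4a2 at 5.41 and Col14a1 at 3.30. Type I collagen was lower than these, with means over all 6 livers of 0.872 CPM per kilobase for Col1a2 and 0.82 for Col1a1. Summed over the 44 genes, collagens took 1017, 1064 and 1390 CPM in the BM livers and 1419, 1473 and 1539 CPM in the BMT livers, so the groups did not overlap. Without Col18a1 the sums were 159, 121 and 168 CPM in BM and 170, 210 and 274 CPM in BMT, and these groups did not overlap either. By class, the fibrillar sums overlapped, at 36.6 to 56.4 CPM in BM and 42.3 to 87.5 CPM in BMT. So did those of the other collagens, at 51.2 to 70.7 and 53.5 to 81.0 CPM. The basement membrane class, which holds Col18a1, did not overlap, at 894 to 1282 and 1323 to 1371 CPM.

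In both gut sets collagen RNA was far lower, at 0.000589 to 0.00262% of counts, against 0.102 to 0.154% in the liver. In code SI the sums were 26.2, 16.4 and 18.6 CPM in BM and 5.89, 8.41 and 19.5 CPM in BMT. The first 2 BMT libraries lay below every BM library, whereas BMT library 3, the one with albumin, lay within the BM range. In code LI the sums were 24.9, 19.8 and 18.9 CPM in BM and 21.2, 19.5 and 17.9 CPM in BMT, and the groups overlapped. Per kilobase, the highest mean among BM libraries was that of Col20a1, a collagen of the fibril-associated group, at 0.725 CPM in code SI and 0.751 in code LI. Among BMT libraries Col6a1 was highest in code SI (0.272, against 0.237 for Col20a1) and Col17a1 in code LI (0.323, against 0.276 for Col20a1). Of the 83 Col6a1 counts in code SI BMT, 68 came from BMT library 3. In BMT libraries 1 and 2 of code SI, Col20a1 lay above Col6a1. Each of these sums follows the total counts of the libraries, whereas the log2 differences below are scaled by edgeR's trimmed mean of M-values (TMM), which leaves out genes of extreme level or ratio when it sets the scale.

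**Figure D1:**
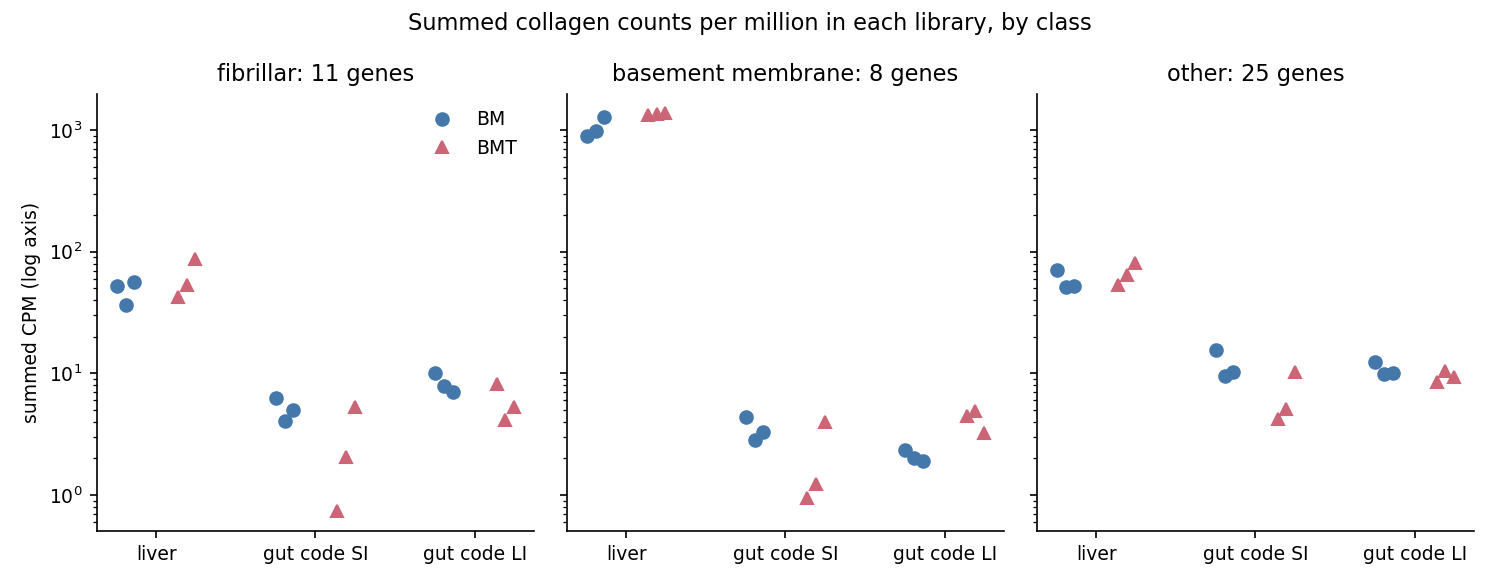
Summed CPM of the fibrillar, basement membrane and other collagens in each library, on a log axis, by tissue and treatment, with a dot for each library. The basement membrane class holds 894 to 1371 CPM in the liver because Col18a1 is in it, while no class is above 15.5 CPM in either gut set.

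Of the 44 collagens, 24 passed the filter on low counts in the liver, 11 in code SI and 14 in code LI. Of the 20 left out in the liver, 5 had no count in any of its 6 libraries (Col9a1, Col9a2, Col11a1, Col19a1 and Col26a1). Of the 33 left out in code SI, 7 had none (Col2a1, Col4a6, Col11a1, Col13a1, Col19a1, Col22a1 and Col24a1), and of the 30 left out in code LI, 3 had none (Col4a6, Col19a1 and Col22a1). Col19a1 was at 0 in all 18 libraries. The highest count of any collagen left out was 18 in the liver, 27 in code SI and 17 in code LI.

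Liver collagens moved in 1 direction where they were called. In BMT liver 8 of 24 tested collagens rose and none fell, while 7.46% of all 14134 genes tested rose and 3.35% fell, 10.8% in all. The 8 were Col1a1, Col1a2 and Col5a3 among 8 fibrillar collagens tested, Col4a1, Col4a2 and Col4a5 among 5 basement membrane collagens tested, and Col6a1 and Col6a2 among 11 others tested. The median log2 difference of the 24 was 0.56, against -0.02 over all genes tested, and 23 of the 24 had a positive value. In 10 of the 24 every BMT library lay above every BM library, which held for 11.2% of all genes tested. At an unadjusted p under 0.05 there were 10. The share of all genes at that unadjusted threshold was not counted, here or below, so such counts have no background beside them.

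Type IV collagen, the network former of basement membranes, gave the smallest p-values among the liver collagens. Col4a1 (chromosome 8, 11198423 to 11312826) stood at 17.6, 15.3 and 28.2 CPM in BM and at 37.8, 52.2 and 55.8 CPM in BMT. Col4a2, its heterotrimer partner (chromosome 8, 11312805 to 11449287), stood at 13.4, 13.9 and 22.7 CPM in BM and at 31.2, 33.6 and 42.7 CPM in BMT. For each gene the lowest BMT library lay above the highest BM library, and BM library 3 was the highest of the controls. Col4a1 rose by 1.44 ± 0.21 (SE, n = 3 per group) on the log2 scale and Col4a2 by 1.29 ± 0.19, with adjusted p = 0.00623 for both by edgeR. Both calls held under each of the 12 other settings run. The genes lie head to head on opposite strands and their annotated spans share 22 bases. Per kilobase, the Col4a1 to Col4a2 level ratio was 0.977 to 1.16 in the BM livers and 1.07 to 1.38 in the BMT livers, and these ranges overlapped.

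Col4a5, the type IV chain on the X chromosome (141475385 to 141689234), stood at 1.90, 1.64 and 1.82 CPM in BM and at 2.40, 2.88 and 3.16 CPM in BMT. The groups did not overlap, and Col4a5 rose by 0.82 ± 0.22 on the log2 scale with an adjusted p of 0.0499, at the threshold. That call was lost when any 1 of the 6 livers was left out and under 5 other settings (adjusted p = 0.0506 to 0.167), and of the 12 alternatives the DESeq2 Wald test alone kept it (0.0304). Col18a1 (chromosome 10, 77052178 to 77166548) stood at 858, 943 and 1223 CPM in BM and at 1249, 1262 and 1265 CPM in BMT. BM library 3 came close to the lowest BMT library without reaching it, and the log2 difference of 0.51 ± 0.17 was not called (adjusted p = 0.0938). Col18a1 was called by DESeq2 (adjusted p = 0.0107) and without BM library 3 (0.0326), within a range of 0.0107 to 0.263 over its alternatives. Col15a1, the other multiplexin, stood at 1.64 to 5.59 CPM in BM and 1.96 to 3.52 CPM in BMT, with a log2 difference of 0.11 that was not called.

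Among the fibrillar collagens of the liver, type I rose. Col1a1, which encodes the alpha-1 chain of type I collagen (chromosome 11, 94936224 to 94953042), stood at 2.13, 2.14 and 3.08 CPM in BM and at 4.77, 7.25 and 12.9 CPM in BMT. Every BMT liver lay above every BM liver, but the BMT livers spread widely, with a mean of 8.32 ± 4.18 CPM (SD, n = 3) against 2.45 ± 0.545 CPM in BM. Its log2 rise was 1.92 ± 0.34, with an adjusted p of 0.0119. Without BM library 2 its adjusted p was 0.0595, within a range of 2.8e-06 to 0.0595 over the alternatives.

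Col1a2, the alpha-2 chain (chromosome 6, 4504814 to 4541544), stood at 9.0, 7.41 and 8.62 CPM in BM and at 9.90, 12.3 and 17.8 CPM in BMT. It rose by 0.84 ± 0.20 (adjusted p = 0.0376), with no overlap between groups, and BMT library 3 was the highest for both type I chains. The Col1a2 call was lost when BM library 2 or 3 or BMT library 2 or 3 was left out and under 3 other settings. Its adjusted p ran from 0.00658 to 0.147 over all 12 alternatives. The Col1a1 to Col1a2 level ratio per kilobase was 0.447 to 0.675 in the BM livers and 0.912 to 1.38 in the BMT livers. These ranges did not overlap, and the ratio was not tested.

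Col5a3, a minor fibrillar chain (chromosome 9, 20770050 to 20815067), stood at 0.860, 0.546 and 1.26 CPM in BM and at 3.30, 2.63 and 1.79 CPM in BMT. It rose by 1.74 ± 0.38 (adjusted p = 0.0264), and the lowest BMT liver was above the highest BM liver. Its call was lost without BM library 1 or 2, without BMT library 1 or 2 and on lane L002 alone. Its adjusted p ran from 0.000756 to 0.0965 over all 12 alternatives. Col3a1, which encodes type III collagen (chromosome 1, 45311538 to 45349706), did not follow type I. It stood at 26.2, 15.4 and 20.9 CPM in BM and at 11.7, 12.7 and 32.6 CPM in BMT. The lowest and the highest of the 6 livers were both BMT libraries, and the log2 difference was 0.01 ± 0.38 (adjusted p = 0.989). The Col1a1 to Col3a1 level ratio per kilobase was 0.121 to 0.220 in BM livers and 0.592 to 0.853 in BMT livers, again without overlap and without a test. The other fibrillar collagens tested were not called and had log2 differences of 0.11 (Col5a1), 0.34 (Col27a1), 0.56 (Col5a2) and 0.86 (Col11a2).

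Type VI collagen, which forms beaded microfibrils around cells, accounted for both calls among the other collagens. Col6a1 (chromosome 10, 76708792 to 76726168) stood at 8.51, 5.86 and 5.08 CPM in BM and at 12.1, 12.2 and 15.2 CPM in BMT. Col6a2, which lies next to it on the same strand (76595762 to 76623630), stood at 3.98, 3.32 and 2.66 CPM in BM and at 5.50, 8.51 and 11.3 CPM in BMT. Neither gene's groups overlapped. The log2 rise was 1.18 ± 0.24 for Col6a1 (adjusted p = 0.0187) and 1.49 ± 0.29 for Col6a2 (0.0161). The Col6a1 call was lost without BM library 2 or any 1 BMT library (adjusted p = 0.0653 to 0.0872), and the Col6a2 call without BM library 2, without BMT library 2 or 3 and on lane L002 alone (0.0546 to 0.0733).

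Col6a5, another type VI chain, stood at 1.31, 1.23 and 0.233 CPM in BM and at 3.30, 2.55 and 3.87 CPM in BMT. Its groups did not overlap, and its log2 difference of 1.95 ± 0.53 missed the threshold (adjusted p = 0.0552). Col6a3 and Col6a6 were not called, at 0.54 and 0.72. Col14a1, a fibril-associated collagen of stromal cells, was the member with a negative value: 41.3, 27.4 and 22.5 CPM in BM and 17.2, 22.7 and 29.6 CPM in BMT, a log2 difference of -0.25 ± 0.27 (adjusted p = 0.619). The remaining others tested lay between 0.05 (Col20a1) and 0.56 (Col17a1) and were not called.

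**Figure D2:**
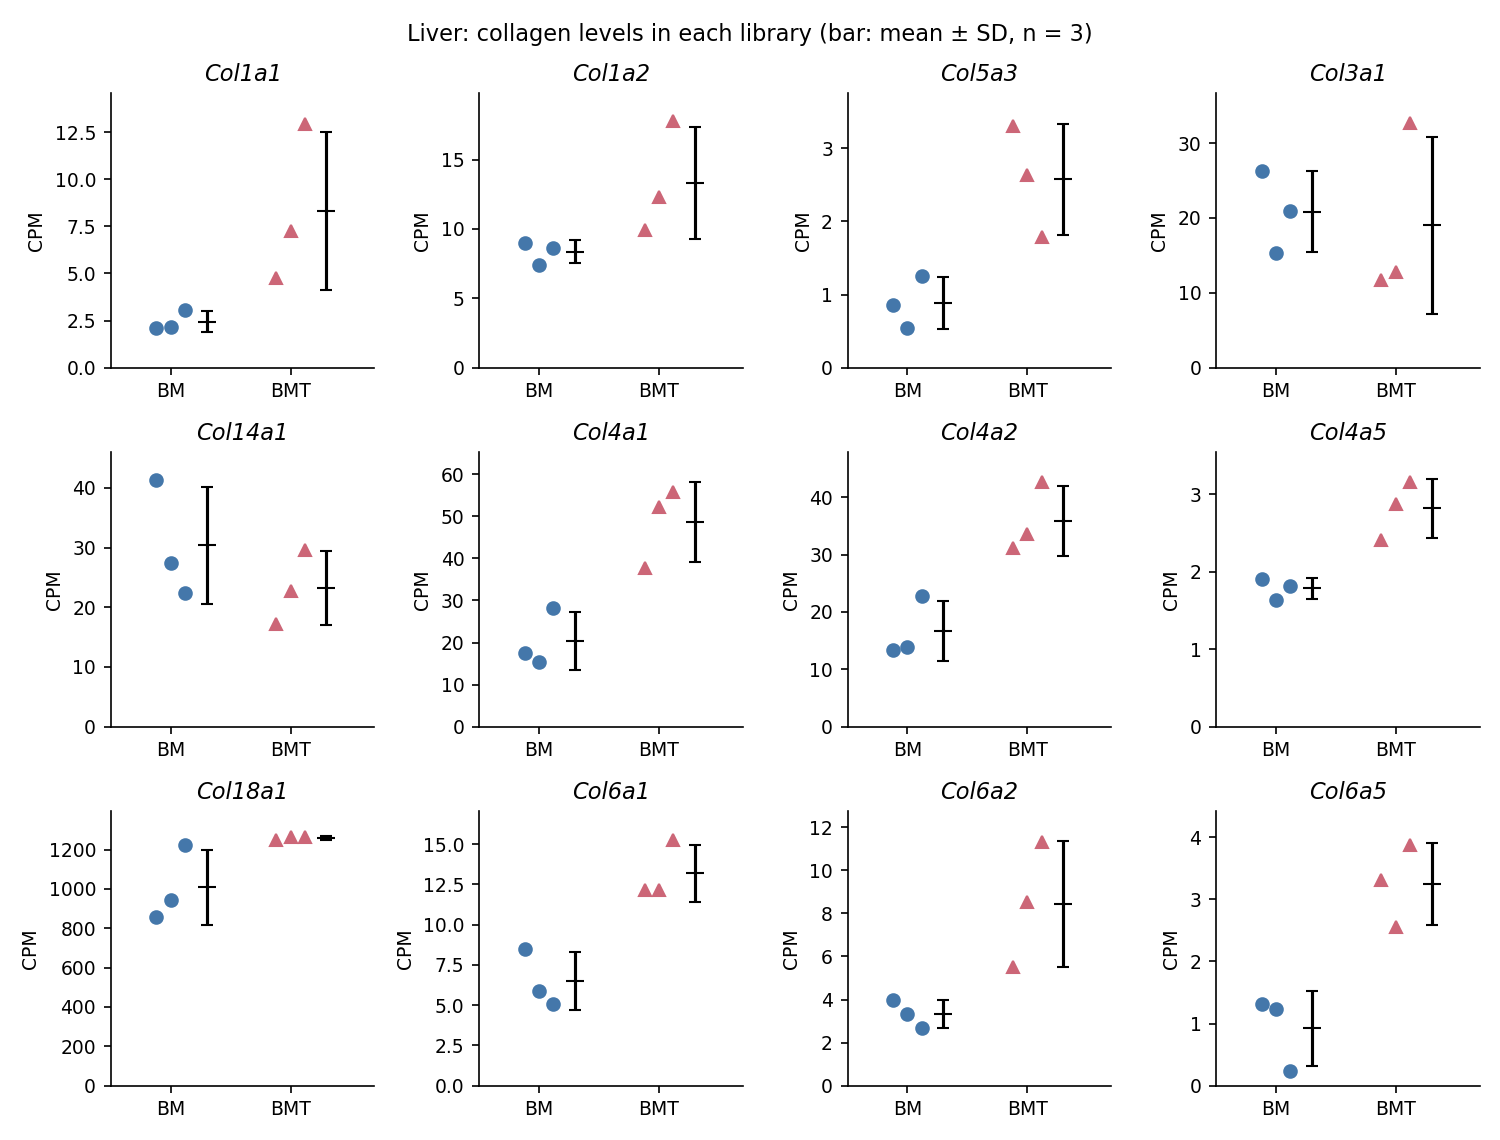
CPM of 12 collagens in each liver library, with BM as blue circles, BMT as red triangles and the mean ± SD (n = 3) as black bars, each panel on its own axis. Col1a1 runs from 2.13 to 3.08 CPM in BM and from 4.77 to 12.9 CPM in BMT, while the BMT points of Col3a1 lie on both sides of the BM points.

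The number of liver collagens called depended on single libraries. It was 6, 2 and 9 when BM library 1, 2 or 3 was left out, and 5, 3 and 4 when BMT library 1, 2 or 3 was left out. Without BM library 2 the 2 calls were Col4a1 and Col4a2. The calls over all genes moved too: with all livers 1055 genes rose, and in these fits 875, 519 and 1556 were higher without BM library 1, 2 or 3 and 554, 459 and 742 without BMT library 1, 2 or 3. Scaled by total counts instead of TMM, an alternative added after the data were seen, 6 collagens were called and their median log2 difference was 0.38. The median over all genes then moved from -0.02 to -0.20, and calls towards higher levels made up 40.7% of all calls, against 69% with TMM.

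Markers of cells that make collagen did not all move with the liver collagens. The 13 markers of fibroblasts and stellate cells summed to 241 to 387 CPM in the BM livers and 198 to 222 CPM in the BMT livers. Of these, Pdgfra rose by 1.09 ± 0.26 (adjusted p = 0.037), while Ngfr (-1.92 ± 0.38, adjusted p = 0.0178) and Ecm1 (-0.67 ± 0.15, adjusted p = 0.0302) fell. The 10 endothelial markers summed to 222 to 290 CPM in BM and 250 to 340 CPM in BMT. Of these 4 rose and none fell, beside 7.46% and 3.35% of all genes tested. By sign, 6 of the 10 log2 differences were positive and 4 negative. The called markers included Lyve1 (2.12 ± 0.40, adjusted p = 0.016) and Stab2 (0.89 ± 0.16, adjusted p = 0.0138), both of liver sinusoids. The 8 smooth muscle and myofibroblast markers summed to 55.9 to 62.2 CPM in BM and 65.9 to 78.8 CPM in BMT, where Mylk rose by 0.50 (adjusted p = 0.0494) and none fell. All 7 T cell markers rose, from a sum of 2.17 to 4.99 CPM in BM to 40.1 to 41.0 CPM in BMT. Mitochondrial transcripts took 4.22 to 5.26% of counts in the BM livers and 2.77 to 3.08% in the BMT livers. The part of these differences in the collagen levels was not tested.

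In code SI, the set with ileal markers, 2 of 11 tested collagens fell and none rose, while 11.8% of all 14621 genes tested fell, 11.6% rose and 23.4% were called in all. The median log2 difference of the 11 was -0.94, against 0.02 over all genes tested. In 4 of the 11 every BMT library lay below every BM library, which held for 22.9% of all genes tested. At an unadjusted p under 0.05 there were 3, again without a count over all genes.

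Col20a1 (chromosome 2, 180986535 to 181018363) stood at 4.68, 3.48 and 3.02 CPM in BM and at 0.743, 1.33 and 1.59 CPM in BMT. All 3 BMT libraries, library 3 included, lay well below the lowest BM library. Col20a1 thus fell by 1.55 ± 0.35 in log2 units, with an adjusted p of 0.00921, and the call held under each of the 11 distinct other settings run (lane L002 alone is here the same fit as that without BMT library 2). Col11a2, a fibrillar chain best known from cartilage (chromosome 17, 34039437 to 34066685), stood at 1.32, 1.40 and 1.99 CPM in BM and at 0.371, 0.729 and 0.686 CPM in BMT. It fell by 1.32 ± 0.38 (adjusted p = 0.0274) without overlap. The Col11a2 call was lost on lane L002 alone and when any library other than BMT library 3 was left out, with an adjusted p of 0.0130 to 0.111 over all alternatives.

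Other collagens of code SI tracked BMT library 3. Col3a1 stood at 2.14, 1.22 and 1.23 CPM in BM and at 0.106, 0.729 and 3.13 CPM in BMT, so the lowest and the highest library were both BMT. Col6a1 stood at 2.41, 0.498 and 0.767 CPM in BM and at 0.106, 0.558 and 2.91 CPM in BMT. Col18a1 stood at 2.86, 1.99 and 1.79 CPM in BM and at 0.425, 0.601 and 2.23 CPM in BMT. In each of these genes BMT library 3 lay above at least 2 of the BM libraries and far above the other BMT libraries. Their log2 differences were -0.11 (adjusted p = 0.932), 0.05 (0.977) and -0.94 (0.239).

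Col7a1, the anchoring fibril collagen that ties epithelium to its stroma (chromosome 9, 108953586 to 108984875), stood at 3.09, 0.814 and 1.02 CPM in BM and at 0.584, 0.558 and 1.07 CPM in BMT, with a log2 difference of -1.11 (adjusted p = 0.173). Col16a1, a fibril-associated collagen, stood at 1.14, 1.40 and 1.94 CPM in BM and at 0.478, 0.729 and 1.07 CPM in BMT. Its groups did not overlap, but the log2 difference of -0.89 was not called (adjusted p = 0.129). Without BMT library 3, 7 collagens of 13 tested were called lower and none higher, beside 1862 genes lower and 1913 higher of 15046 tested in that fit: Col1a1, Col1a2, Col4a1, Col6a2, Col11a2, Col18a1 and Col20a1. Leaving out any other library of code SI gave 1 collagen lower, Col20a1, beside 1056 to 1512 of all genes. The stromal proteoglycan decorin (Dcn) stood at 5.73, 1.58 and 4.70 CPM in BM and at 0.584, 1.5 and 5.91 CPM in BMT, with the same library highest among the BMT libraries. Over all 13 fibroblast and stellate markers the sum was 20.5 to 31.1 CPM in BM and 15.2 to 24.0 CPM in BMT. Of the 5 that passed the filter, Hgf fell by 3.33 ± 0.62 (adjusted p = 0.00316) and Ecm1 rose by 1.33 ± 0.35 (0.0184). Among those under the filter, Reln, Rgs5, Hand2 and Ngfr had no count in any BMT library and Colec11 none in any BM library. Smooth muscle markers, none of them called, summed to 85.4 to 136 CPM in BM and 100 to 153 CPM in BMT. T cell markers summed to 3.30 to 8.95 CPM in BM and 109 to 166 CPM in BMT. The small intestine markers summed to 19152 to 26442 CPM in BM and 7066 to 12541 CPM in BMT. Of these 5 markers 3 fell, while 1, Sis, rose (1.12 ± 0.35, adjusted p = 0.038). Mitochondrial transcripts took 7.30 to 8.63% of counts in BM and 4.83 to 6.01% in BMT. Endothelial markers summed to 6.09 to 7.01 CPM in BM and 9.56 to 18.6 CPM in BMT, and epithelial markers to 16295 to 18297 and 19948 to 21566 CPM. The part of these differences in the collagen levels was not tested.

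In code LI, the set with colon markers, 3 of 14 tested collagens rose and 2 fell, while 20.4% of all 14880 genes tested rose and 21% fell, 41.4% in all. The median log2 difference of the 14 was -0.20, against 0.00 over all genes tested. Listed by type, Col4a1 and Col4a2 of 3 basement membrane collagens tested rose and none of 4 fibrillar collagens was called. Of 7 others Col17a1 rose while Col16a1 and Col20a1 fell. Whether the types differ was not tested. At an unadjusted p under 0.05 there were 9, again without a count over all genes. In 4 of the 14 every BMT library lay above every BM library and in 5 every one lay below, which held for 25.2% and 28.3% of all genes tested.

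Col17a1, a transmembrane collagen of hemidesmosomes through which epithelial cells hold on to the basement membrane (chromosome 19, 47646344 to 47692094), had 4 counts in each BM library and 20, 59 and 43 counts in the BMT libraries. These are 0.204, 0.180 and 0.156 CPM in BM and 0.895, 2.65 and 2.05 CPM in BMT, so every BMT library lay well above the BM libraries. On the log2 scale the rise was 3.35 ± 0.51, with an adjusted p of 0.000437. Col4a2 stood at 0.357, 0.449 and 0.156 CPM in BM and at 1.57, 2.42 and 0.954 CPM in BMT, and rose by 2.37 ± 0.46 (adjusted p = 0.00231). Both calls held under each of the 11 distinct other settings run (lane L002 alone is here the same fit as that without BMT library 3). Col4a1 stood at 0.611, 0.584 and 0.508 CPM in BM and at 1.30, 1.26 and 0.954 CPM in BMT and rose by 1.05 ± 0.32 (adjusted p = 0.0219), again without overlap. The Col4a1 call was lost by DESeq2 (adjusted p = 0.0619) and when any library other than BMT library 3 was left out, with an adjusted p of 0.0202 to 0.0766 over all alternatives.

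Col20a1 stood at 4.23, 3.77 and 3.59 CPM in BM and at 0.760, 1.17 and 2.34 CPM in BMT, and fell by 1.42 ± 0.38 (adjusted p = 0.0126). The groups did not overlap, and without BMT library 2 the adjusted p was 0.0542, within a range of 4.18e-05 to 0.0542 over the alternatives. Col16a1 (chromosome 4, 130047840 to 130099283) stood at 1.58, 1.66 and 1.09 CPM in BM and at 0.626, 0.763 and 0.620 CPM in BMT, and fell by 1.09 ± 0.32 (adjusted p = 0.0196). Its call was lost without BM library 1 or 2 or BMT library 1, with an adjusted p of 0.0208 to 0.0913 over all alternatives. Col11a2, called in code SI, stood at 2.55, 1.84 and 1.48 CPM in BM and at 0.805, 1.21 and 1.14 CPM in BMT, without overlap and with a log2 difference of -0.87 ± 0.32 that narrowly missed the threshold (adjusted p = 0.052).

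The fibrillar collagens of connective tissue were not called in code LI. Col3a1 stood at 3.21, 2.83 and 2.62 CPM in BM and at 3.85, 1.17 and 2.15 CPM in BMT, with a log2 difference of -0.26 (adjusted p = 0.611). Col1a2 stood at 2.24, 1.35 and 1.37 CPM in BM and at 1.07, 0.404 and 1.00 CPM in BMT, without overlap and with a log2 difference of -0.97 (adjusted p = 0.08). Col1a1 overlapped between groups at -0.69 (adjusted p = 0.205). Fibroblast and stellate markers summed to 12.2 to 14.4 CPM in BM and 13.0 to 20.6 CPM in BMT. Of these, Ecm1 rose by 2.80 ± 0.24 (adjusted p = 1.06e-05) and Lrat fell by 2.25 ± 0.33 (0.000388). Under the filter, Ngfr was at 0 in all 6 libraries and Hand2 at 0 in the BM libraries. The smooth muscle markers summed to 47.1 to 51.1 CPM in BM and 50.9 to 62.6 CPM in BMT, where Acta2 rose by 2.45 ± 0.31 (adjusted p = 0.000135) and Synpo2 fell by 2.14 ± 0.44 (0.00294). Epithelial markers summed to 15736 to 18159 CPM in BM and 21376 to 26636 CPM in BMT, and the colon markers to 10320 to 11317 and 5470 to 8641 CPM. Of the 5 colon markers 2 fell, while 1, Car4, rose (0.98 ± 0.19, adjusted p = 0.00236). T cell markers summed to 5.86 to 7.77 CPM in BM and 200 to 321 CPM in BMT, and mitochondrial transcripts took 9.72 to 10.7% and 6.24 to 7.46% of counts. The part of these differences in the collagen levels was not tested.

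**Figure D3:**
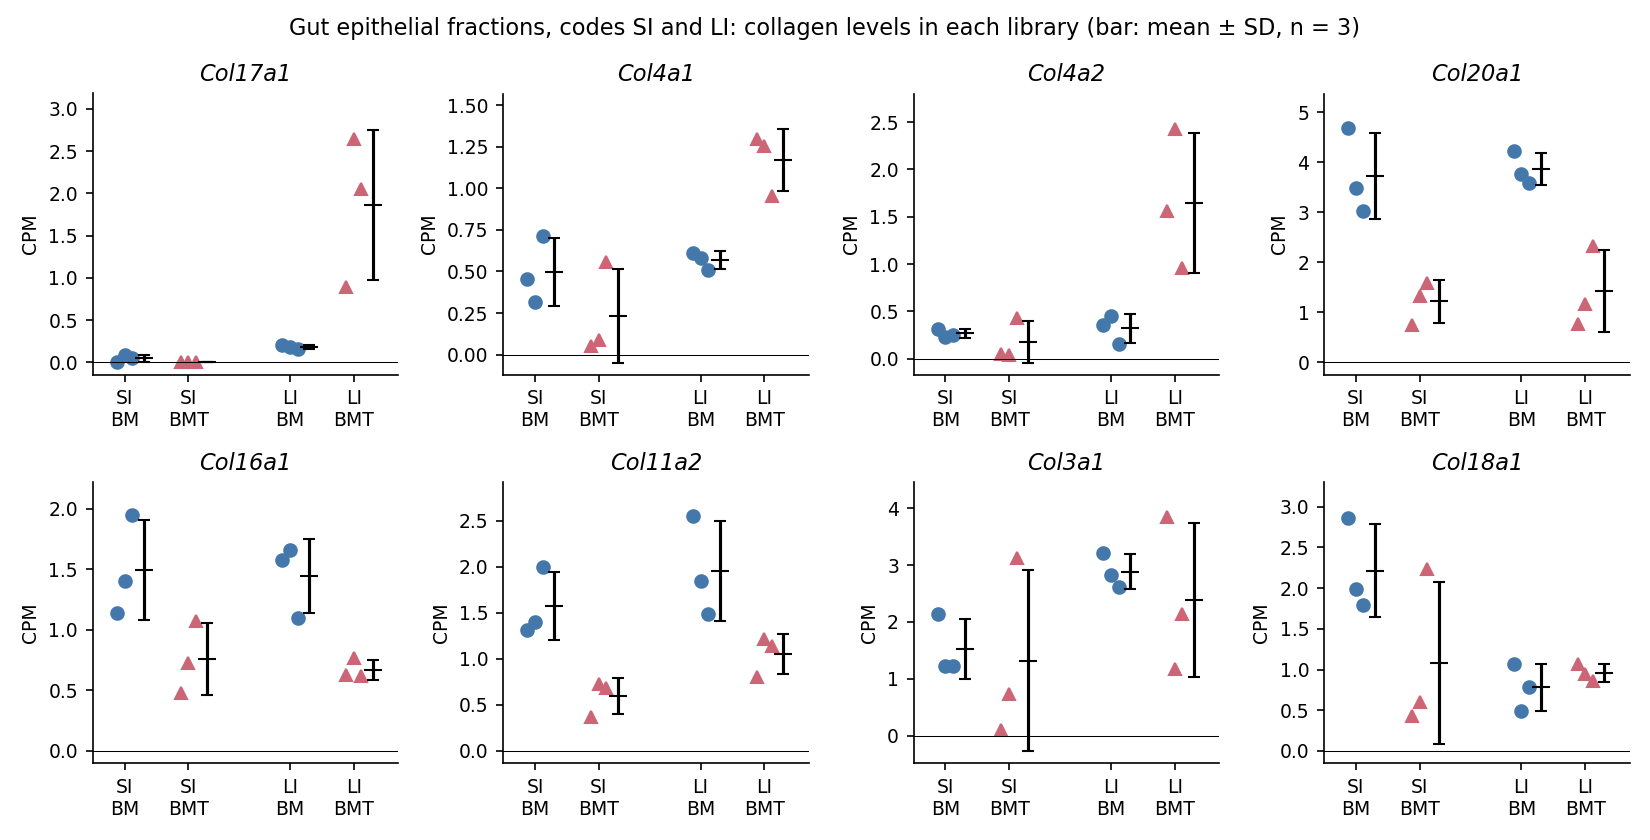
CPM of 8 collagens in each gut library of code SI and code LI, with BM as blue circles, BMT as red triangles and the mean ± SD (n = 3) as black bars, each panel on its own axis. In code LI the BMT points of Col17a1 run from 0.895 to 2.65 CPM above BM points of 0.156 to 0.204 CPM, and in both sets the BMT points of Col20a1 lie below its BM points.

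Whether the BMT effect itself differed between tissues was tested in 1 model over all 18 libraries, with 27 collagens tested. Its block was the number that library names share across tissues, called the mouse below although no label states that it marks 1 animal. A mouse left out is named below by its treatment and title number, as in BM number 1. That title number is not the number in the library name. The effect in liver exceeded that in code SI for 7 collagens and fell short of it for none, while 8.67% of 17275 genes tested differed in the first direction, 6.32% in the second and 15.0% in all. Named by type, they were the fibrillar Col1a1, Col1a2 and Col11a2, the basement membrane Col4a1, and Col6a2, Col6a5 and Col20a1. The difference of log2 effects was 3.74 ± 0.93 for Col1a1 (adjusted p = 0.0144), 2.08 ± 0.50 for Col1a2 (0.0126) and 2.42 ± 0.61 for Col4a1 (0.0156). In code SI the Col1a1 counts were 19, 8 and 9 in BM and 0, 0 and 10 in BMT, so its difference rests on few reads. Leaving out a mouse moved it from 3.74 to between 3.15 (without BMT number 2) and 7.97 (without BMT number 3). In the last fit the remaining code SI BMT libraries are at 0, so its fitted size is no bound. For Col6a2 the difference was 2.53 ± 0.72 (adjusted p = 0.0282), for Col11a2 2.27 ± 0.65 (0.0289) and for Col20a1 1.76 ± 0.53 (0.0378). Without the mouse as a block, Col6a2 (adjusted p = 0.0674) and Col20a1 (0.0827) were not called. Col6a5 had no library of code SI above 3 counts, so no size is given for it. Each of the 7 calls was lost in at least 1 of the 6 fits that left out a mouse, with adjusted p of up to 0.154 for Col20a1. Over these fits the count ran from 2 (without BM number 1, BMT number 1 or BMT number 2) to 10 (without BMT number 3), and it was 4 without BM number 2 and 6 without BM number 3. Of all genes tested, 726 (without BM number 2) to 1658 (without BMT number 3) were higher in these fits.

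Between liver and code LI the effect was higher in liver for Col1a2 (1.83 ± 0.44, adjusted p = 0.0102), Col1a1 (2.52 ± 0.73, 0.0261) and Col20a1 (1.68 ± 0.53, 0.0373). It was lower in liver for Col17a1, at -2.75 ± 0.85 (adjusted p = 0.0406), whose liver levels were 0.636 to 0.724 CPM in BM and 0.472 to 1.34 CPM in BMT. That is 3 of 27 in one direction and 1 in the other, beside 10.6% and 8.13% of all genes tested, 18.8% in all. The higher calls numbered 1 without BM number 1 or 2, 5 without BM number 3 and 0 without BMT number 2. Over the fits that left out a mouse, 1064 to 1887 of all genes tested were higher. Of the 6 fits that left out a mouse, the one without BMT number 1 kept the Col17a1 call, and its adjusted p ran from 0.00253 to 0.136 over the alternatives. Col1a2 lost its call without BMT number 2 (adjusted p = 0.0572), Col1a1 without BM number 1 or 2 or BMT number 2 (up to 0.115) and Col20a1 in 4 of the 6 fits and without the block (0.0897). Both comparisons share the liver libraries.

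No collagen differed in its BMT effect between code LI and code SI at an adjusted p under 0.05 by edgeR, while 4.91% of all genes tested did (2.51% higher in code LI and 2.40% lower). Of the 27 collagens 6 had an unadjusted p under 0.05, and the share of all genes at that threshold was not counted. The smallest adjusted p was that of Col6a5 (0.0961), which had at most 4 counts in any gut library, so no size is given for it. Next were Col4a2, at 2.85 with an adjusted p of 0.102, and Col4a1, at 2.00 with an adjusted p of 0.114. Without BMT number 3, which takes out the code SI library with albumin and its code LI partner, 4 of 29 collagens were called higher in code LI (Col4a1, Col4a2, Col6a2 and Col18a1), beside 390 genes higher and 262 lower of 17721 tested. None was called when any other mouse was left out. With all libraries in, the Col4a1 effects of 1.05 in code LI and -0.95 in code SI were therefore not shown to differ.

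**Figure D4:**
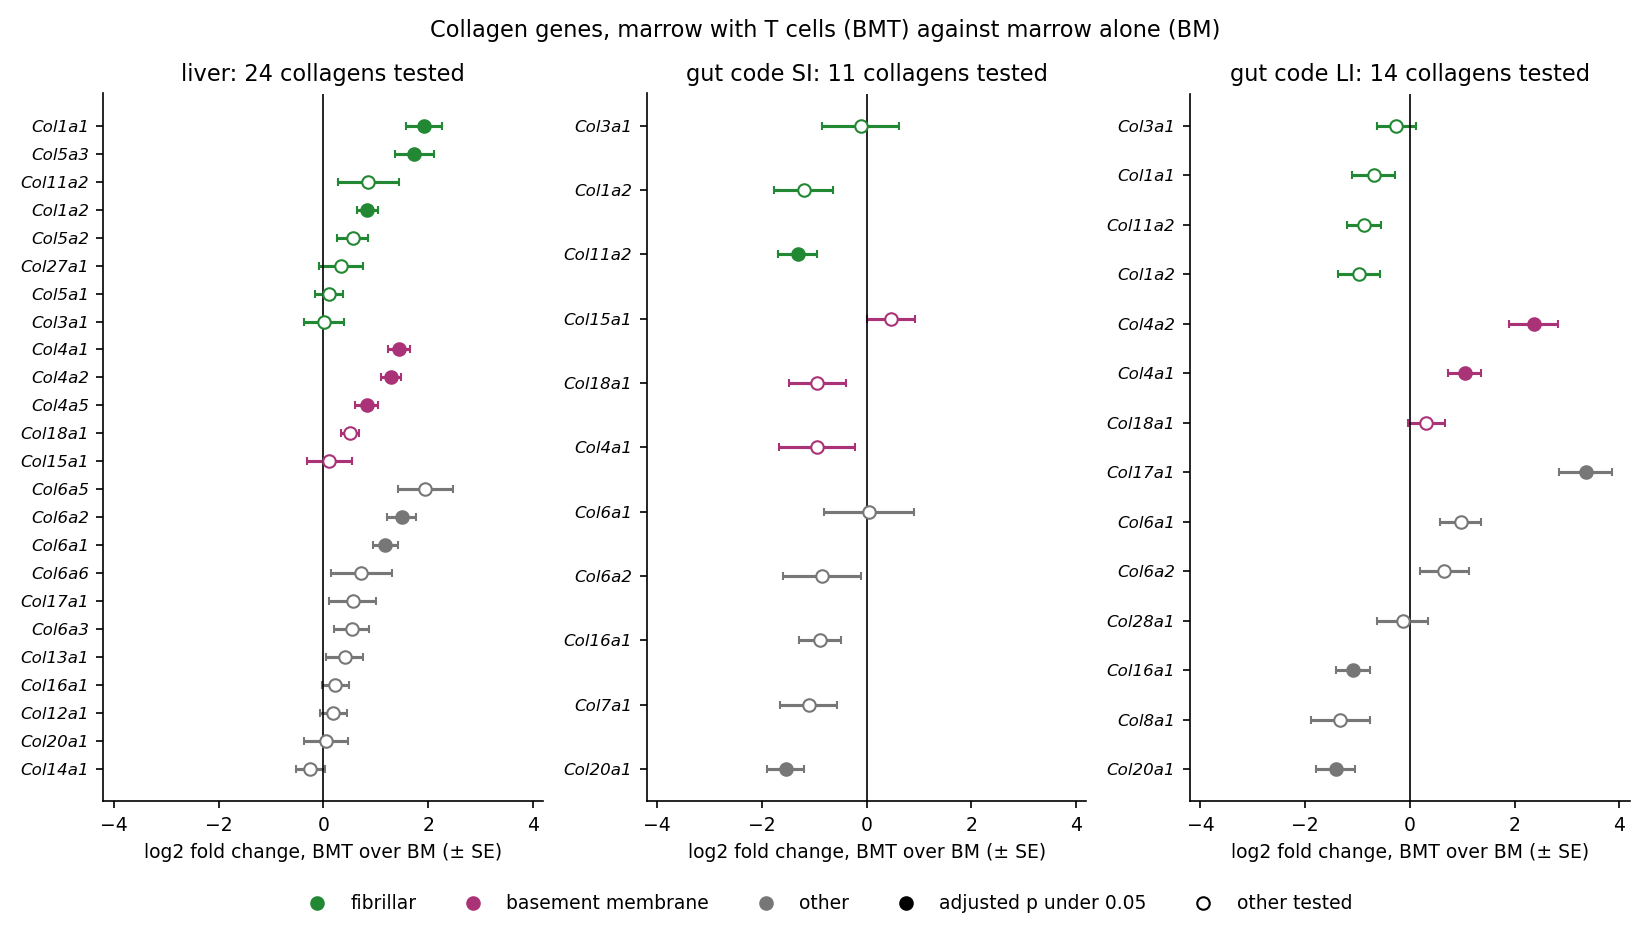
Log2 difference of BMT over BM for each collagen tested in the liver, code SI and code LI, with bars for the SE, filled symbols for adjusted p under 0.05 and open symbols for other tested genes. In the liver 23 of 24 collagens lie above 0, with Col1a1 at 1.92 and Col14a1 at -0.25, while code LI holds Col17a1 at 3.35 and Col20a1 at -1.42.

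Levels were also compared between the gut sets within a treatment. In BM mice, 2 of 27 collagens were lower in code LI and none higher, beside 13.1% and 14.0% of all genes tested, 27.1% in all. Col7a1 stood at 0.866, 0.269 and 0.273 CPM in code LI BM and at 3.09, 0.814 and 1.02 CPM in code SI BM, so the highest code LI library lay above the lowest of code SI, with a log2 difference of -1.77 ± 0.44 (adjusted p = 0.00728). Col18a1 differed by -1.5 ± 0.45 (adjusted p = 0.0217). Without BM number 1 Col7a1 had an adjusted p of 0.0781, and Col18a1 lost its call without any 1 of the BM mice (up to 0.141).

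In BMT mice, 6 of 27 were higher in code LI and 1 lower, beside 12.3% and 9.64% of all genes tested, 22.0% in all. Col17a1 had 122 counts in the 3 code LI BMT libraries and none in code SI, so it was at least 40.6-fold higher against a floor of 3 counts over the group. Col4a2 was higher by 3.09 ± 0.57 (adjusted p = 0.0009) and Col4a1 by 2.23 ± 0.48 (adjusted p = 0.0031). Col1a1 was higher by 2.34 ± 0.78 (adjusted p = 0.0445). For Col5a1 the group counts were 27 and 1, a ratio of 26.9 with a 95% counting interval of 4.44 to 1103, and for Col8a1 22 and 2, a ratio of 11 (2.7 to 96.3). These intervals cover counting error only. Col7a1 was again lower in code LI, by -1.78 ± 0.51 on the log2 scale (adjusted p = 0.0201). The calls of Col17a1, Col4a1 and Col4a2 held under each of the 10 other settings run. Without BMT number 1 these 3 were the higher calls left, and without BMT number 1 or 3, or without the mouse block, Col7a1 was not called. Col1a1 (adjusted p = 0.0527) and Col8a1 (0.0581) were not called without the block either.

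The genes around collagen were read from lists chosen together with the collagens, and counts are again by edgeR at an adjusted p under 0.05. They stand beside 7.46% of all tested genes higher and 3.35% lower in the liver, 11.6% and 11.8% in code SI, and 20.4% and 21% in code LI. Of 31 genes of collagen synthesis and crosslinking, 4 of 26 tested rose in BMT liver and none fell, with a median of 0.18. Adamts14, a procollagen N-propeptidase, rose by 1.38 ± 0.27 (adjusted p = 0.0173), Bmp1, the C-propeptidase, by 0.74 ± 0.17 (0.0293) and Colgalt1, which adds galactose to hydroxylysine, by 0.46 ± 0.11 (0.0388). In code SI none of 16 rose and 3 fell, with a median of -0.11: Bmp1 (-2.64 ± 0.41, adjusted p = 0.00108), the collagen chaperone Serpinh1 (-2.10 ± 0.62, 0.0309) and the prolyl hydroxylase subunit P4ha2 (-1.25 ± 0.41, 0.0466). In code LI 6 of 17 rose and 1 fell, with a median of 0.20. Adamts14 had no count in BM and 84 counts in BMT, at least 28.8-fold higher (adjusted p = 0.000248). The lysyl oxidase Loxl4 rose by 3.45 ± 0.68 (0.00235), and Mia3, which loads collagen into transport carriers, fell by 0.60 ± 0.13 (0.00433).

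Of 17 genes of collagen degradation and its inhibitors, 4 of 13 tested rose in BMT liver and none fell, with a median of 0.98. They included Mmp7 (2.72 ± 0.35, adjusted p = 0.00395), the gelatinase Mmp9 (3.56 ± 0.49, 0.00527) and the neutrophil collagenase Mmp8 (5.55 ± 0.83, 0.00664). In code SI none of 5 rose and 2 fell: Mmp7, a product of Paneth cells in the small intestine (-1.01 ± 0.20, adjusted p = 0.0042), and the inhibitor Timp3 (-1.99 ± 0.41, 0.00547), while Mmp14 was not called at -0.56 (0.0857), with a median of -0.66. In code LI 5 of 10 rose and 3 fell, where 41.4% of all genes were called, with a median of 0.48. The macrophage elastase Mmp12 rose by 5.49 ± 0.64 (adjusted p = 7.45e-05) and Mmp15 by 1.37 ± 0.20 (0.000362), while Timp4 fell by 4.70 ± 0.55 (7.84e-05).

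Of 15 partners of collagen in basement membranes, 2 of 14 tested rose in BMT liver and none fell: the laminin chains Lama2 (1.31 ± 0.25, adjusted p = 0.0158) and Lama5 (1.23 ± 0.25, 0.021), while nidogen-1, Nid1, was not called at 0.68 (0.0965). In code SI 3 of 9 fell and none rose: Lamb2 (-1.74 ± 0.28, adjusted p = 0.00111), Lama5 (-1.19 ± 0.25, 0.0055) and nidogen-2, Nid2 (-1.31 ± 0.38, 0.0301). In code LI 7 of 11 rose and 3 fell, against 20.4% and 21% of all genes. Among them the laminin chains Lama5 and Lamb3 rose by 1.73 ± 0.25 (adjusted p = 0.000333) and 0.73 ± 0.17 (0.00573). The medians were 0.33, -0.31 and 0.73.

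Of 9 collagen receptors, none of 7 tested was called in the liver and none of 5 in code SI, with medians of 0.26 and 0.14 and with 1 and 2 at an unadjusted p under 0.05. The smallest p-values were those of the integrin chains Itga2 in the liver (2.48 ± 0.78, adjusted p = 0.0862) and Itga1 in code SI (-0.65 ± 0.24, 0.0706). Lair1 (0.45) and Itga1 (0.26) followed in the liver, and Itgb1 (0.37) and Itga10 (-0.69) in code SI. In code LI 2 of 5 rose and none fell, with a median of 0.35: Itga1 (0.74 ± 0.27, adjusted p = 0.0498) and Lair1, an inhibitory receptor of leukocytes, with 117 counts in BMT and 2 in BM, a ratio of 60.2 (95% counting interval 16.3 to 503). The receptor kinase Ddr1 was not called there at 0.35. Of 14 genes of TGF-beta signalling, a pathway known to induce fibrillar collagen, 3 of 13 tested rose in BMT liver and none fell. They included the targets Ccn2 (1.84 ± 0.23, adjusted p = 0.00348) and Skil (0.97 ± 0.16, 0.0087). The ligand gene Tgfb1 rose in code SI by 2.45 ± 0.32 (adjusted p = 0.000336), where 2 of 8 rose and none fell. The receptor gene Tgfbr2 rose there by 1.00 ± 0.22 (0.0075), and Skil was not called at 0.41. In code LI, where 3 of 10 rose and 2 fell, Tgfb1 rose by 2.85 ± 0.27 (adjusted p = 1.79e-05) and Tgfb3 by 3.17 ± 0.58 (0.00146), while Smad4 fell by 0.62 ± 0.12 (0.00231). The medians of this list were 0.28, 0.18 and -0.09.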

How the data were processed

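RNA was measured in 18 libraries by polyA-selected, stranded mRNA sequencing, per the labels' protocols. The values used are raw whole-number counts of reads per gene in a single table that the authors deposited. Per the submitters' processing notes, the tools were featureCounts 1.6.3, STAR 2.7.0e and FastQC 0.11.9 with GRCm38.p5 as build. Neither the strand setting of the counting nor the annotation release is stated in those notes or the labels, so reads of overlapping genes may be shared; 13 collagens have exon bases in common with another gene, at most 6.07% of their exon length. Reads that match more than 1 collagen can have been lost. Gene names were matched for 53274 of 53379 identifiers through a GENCODE M21 table, and the 105 unmatched identifiers held 0.00257% of counts. Depth was 18845483 to 25610937 counts per library, which puts the floor of 3 counts at 0.117 to 0.159 CPM.

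Groups followed the sample titles for treatment and replicate, and the library codes for the gut sets, because the titles and codes disagree. Each tissue was fitted separately, 3 BM against 3 BMT, with edgeR 4.0.16 in R 4.3.3: the expression filter by group, TMM scaling, the quasi-likelihood F-test and Benjamini-Hochberg adjustment over all genes tested, two-sided, with calls at 0.05. Differences between tissues came from 1 model of all 18 libraries with a block for the number in the library name, since the same 6 numbers recur in each tissue. No label states that a number marks 1 mouse, and deviations from the group means of same-numbered libraries correlated at only -0.039 to 0.187 between tissues, so calls lost without the block are named. Between liver and code LI 3 collagens were higher without the block, beside 1861 of 17275 genes. Col20a1 was lost there, so a collagen not named above gained a call. The fits were tested on simulated counts before use, with changes planted only in genes of many counts. That test does not cover collagens with few reads. No 2 replicates were duplicates (chi-square per degree of freedom 8.97 to 168 over 18 pairs). Printed CPM are on total counts, and errors of levels are SD, of log2 differences SE.

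Members, lists and tests were chosen with earlier results of these data known. Values in every library are given for a collagen called in a tissue or among its 6 highest by mean CPM, for other lists the 3 genes with the smallest p in each tissue, and further members (Col6a5 and Col15a1 in liver, for example) were chosen after their values were seen. Some marker lists are given by their sums, and their called members are counted or named only in part. Some genes that this rule would name are not reported here. Alternatives were DESeq2 size factors, the DESeq2 1.42.0 Wald test, no filter on low counts, a replicate block (or none, in the joint model), the libraries of lane L002 alone (4 libraries were on lane L001), each library left out in turn, and total count scaling, which was added after seeing the data. Promoter windows came from RefSeq (GRCm38.p6). Of the collagen gene lengths used per kilobase, 40 of 44 were equal in GENCODE M21.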

Additional observations from a re-analysis of the deposited data

Results flagged for a closer look

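The BMT effect differed between tissues, by the tissue by treatment term of the joint edgeR model, for 6 collagens with measurable counts between liver and code SI and for 4 between liver and code LI, where 15.0% and 18.8% of all genes tested differed. Each of these calls was lost in at least 1 of the fits that left out a mouse. Against code SI, the BMT effect in liver was higher on the log2 scale by 3.74 for Col1a1, 2.53 for Col6a2, 2.42 for Col4a1, 2.27 for Col11a2, 2.08 for Col1a2 and 1.76 for Col20a1. Against code LI it was higher by 2.52 for Col1a1, 1.83 for Col1a2 and 1.68 for Col20a1, and it was lower for Col17a1, at -2.75. The liver libraries are shared by both comparisons. Liver is a whole organ and the gut sets are epithelial fractions, so tissue and preparation cannot be told apart in these differences.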

How the results depend on the processing

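By setting, counts of called collagens that moved by over 1.5 times were as follows. Without a filter on low counts, 5 of 37 collagens tested were lower in code SI, beside 2190 of all 26756 genes tested. In code LI 4 of 41 were lower, beside 3381 of 27282 genes. The BMT effect was higher in code LI than in code SI for 5 of 43, beside 847 of 31434 genes. In code LI against code SI 2 of 43 were higher in BM mice and 10 in BMT mice, beside 2611 and 2467 genes. On lane L002 alone, 5 of 25 were higher in liver, beside 857 of 14224 genes. In code SI 1 of 12 was lower on that lane, beside 1512 of 15024 genes. Without the replicate block, none was lower in code LI against code SI in BMT mice. With the replicate block in the single-tissue fits, 6 of 24 collagens were higher in liver, beside 1125 of 14134 genes. Same-numbered BM and BMT libraries correlated at -0.150 to 0.331, so the title numbers share only a number. The replicate block moved no single-tissue count by over 1.5 times. On TMM effective library sizes the mean summed CPM was 1531 in BM and 2261 in BMT liver, 17.6 in BM and 16.3 in BMT code LI.

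Leaving out 1 library or mouse at a time gave 2 to 9 collagens higher in liver, 1 to 7 lower in code SI, and 2 to 4 higher and 1 to 3 lower in code LI. Over the same fits, 459 to 1556 of all 14468 to 14568 genes tested were higher in liver. In code SI 1056 to 1862 of 15003 to 15046 were lower. In code LI 2464 to 3667 of 15249 to 15453 were higher and 2357 to 3553 lower. The BMT effect was higher in code LI than in code SI for 0 to 4, higher in liver than in code SI for 2 to 10, and higher in liver than in code LI for 0 to 5 and lower for 0 to 1. Beside these stood, in the same order, 158 to 390, 726 to 1658, 1064 to 1887 and 780 to 1278 of 17611 to 17721 genes tested. In code LI against code SI, 0 to 2 were higher and 0 to 2 lower in BM mice, and 3 to 9 higher and 0 to 1 lower in BMT mice. Of all genes tested, 1535 to 2571 were higher and 1294 to 2426 lower in BM mice, and 1256 to 2219 and 1148 to 1816 in BMT mice.

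Reversed log2 differences were all of uncalled genes, and over the fits that left out 1 library the range was -0.56 to 0.26 for Col3a1 and -0.47 to 0.080 for Col14a1 in liver, -1.78 to 0.42 for Col3a1 and -1.81 to 1.05 for Col6a1 in code SI, and -0.75 to 0.11 for Col3a1 in code LI. Col3a1 in liver was -0.0011 without the filter, -0.080 with the replicate block, -0.13 with total count scaling, and -0.16, -0.04 and -0.56 without BM library 2, BM library 3 and BMT library 3. Col14a1 in liver was 0.080 without BM library 1. In code SI, Col3a1 was 0.22 on lane L002 alone and 0.24, 0.42 and 0.22 without BM library 1, BMT library 1 and BMT library 2. Col6a1 there was -0.21 with the replicate block, -0.015 with total count scaling, and -0.34, -0.21 and -1.81 without BM library 2, BM library 3 and BMT library 3. Col3a1 in code LI was 0.11 without BMT library 2. Total count scaling lowered the share of calls towards higher levels from 57.8 to 45.4% for liver against code SI and from 56.7 to 40.7% for liver against code LI. Causes were not tested, other than that a left-out library removes its counts. Over named genes and settings, 381 values kept side and direction, 107 lost a call, 7 gained one and 17 reversed. In code SI and code LI 33 and 30 of the 44 collagens were under the filter, and few reads limit what can be said of them.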
